A study of Drosophila melanogaster with 2 samples.

Results

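The regions described here are 507 sites at which Bigmax-GFP was enriched in chromatin just before the start of a gene. They are lines of the authors' list of 1949 reproducible peaks, which passed a threshold on the irreproducible discovery rate (IDR) of the replicates. A line was taken when its summit lay within 500 bp of a protein-coding start, when all such starts were on 1 strand, and when the summit was upstream of the nearest of them. Beyond membership of that list, the summit position was the only measurement the choice used. Of 1289 promoter peaks, 912 had starts on 1 strand. The summit was upstream in 507, downstream in 403 and on the start in 2, and the other 377 promoter peaks had starts on both strands. The libraries were chromatin immunoprecipitations from whole Drosophila melanogaster embryos, mixed in sex and aged 0 to 24 h, of a line with GFP fused to the C terminus of Bigmax. They form 1 group of 2 biological replicates, numbered 3 and 4 in the labels, so the study holds no comparison between conditions. Embryos of all tissues were pooled, so the cells in which a site was bound cannot be told. The antibody label names bigmax, whereas the free text of the same samples calls them input controls, and the lists were taken here as peak calls of the immunoprecipitated libraries.

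Bigmax corresponds in flies to the mammalian protein Mlx, a transcription factor that binds DNA only as a dimer. It pairs with Mondo, the fly counterpart of ChREBP and MondoA, and the pair is known for switching genes in response to sugar through E-boxes of the form CACGTG. RNA polymerase II is placed at a start by elements of the core promoter. In flies these include the TATA box, and many housekeeping genes carry instead the DNA replication-related element TATCGATA or the element with the core GGTCACACT.

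The sequences that follow are from 9 member promoters off chromosome arm 2 right, read on the strand of the gene, 5′ to 3′. They were chosen as the strongest members with a given motif near the summit and no annotated untranslated region there. Each runs from 50 bp before the summit to 50 bp after it, or to the base before the start where that comes first. Capitals mark AGGTTA or its reverse complement TAACCT, a 6-mer known from earlier results to be common at these peaks, and the elements CACGTG, TATCGATA and CAGCTG. The first 5 hold the 6-mer. Mondo was added because its product is the partner of Bigmax, and only 30 bases are shown, since an untranslated region of a longer transcript covers the site. Sp1 and CG6966 hold CACGTG, and RpL27 holds TATCGATA. In dm6 they lie at chrX:15323491-15323590 (plus strand) for Top1, chr3R:28335542-28335632 (minus) for larp, chr3R:5251750-5251850 (minus) for CtsF, chr3L:9511318-9511418 (minus) for RpS9 and chr3R:5599610-5599710 (minus) for kra. The others are chr2L:21309504-21309533 (minus) for Mondo, chrX:9729144-9729244 (plus) for Sp1, chr3R:15095750-15095850 (minus) for CG6966 and chr3R:25685052-25685119 (minus) for RpL27.
Top1: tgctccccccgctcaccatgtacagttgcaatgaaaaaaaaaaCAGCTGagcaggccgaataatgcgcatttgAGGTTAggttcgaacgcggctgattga
larp: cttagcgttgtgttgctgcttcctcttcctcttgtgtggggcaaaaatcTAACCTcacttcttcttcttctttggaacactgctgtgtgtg
CtsF: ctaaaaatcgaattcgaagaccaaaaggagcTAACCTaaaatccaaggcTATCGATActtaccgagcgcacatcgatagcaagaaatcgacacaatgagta
RpS9: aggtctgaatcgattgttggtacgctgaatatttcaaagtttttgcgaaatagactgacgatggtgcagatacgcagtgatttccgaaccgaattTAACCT
kra: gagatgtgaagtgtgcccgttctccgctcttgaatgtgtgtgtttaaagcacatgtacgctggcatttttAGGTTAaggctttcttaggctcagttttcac
Mondo: tgtgcggcgcacAGGTTAtgtgcgtttcgc
Sp1: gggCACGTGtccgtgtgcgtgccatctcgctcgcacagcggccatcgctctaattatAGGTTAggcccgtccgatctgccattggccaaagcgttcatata
CG6966: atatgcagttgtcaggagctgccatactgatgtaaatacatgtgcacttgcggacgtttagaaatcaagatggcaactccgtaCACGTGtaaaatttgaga
RpL27: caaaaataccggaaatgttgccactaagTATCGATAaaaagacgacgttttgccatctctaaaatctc

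Upstream summits crowded against the start. The distance to the nearest start had a median of 75 bp (quartiles 34.5 and 183.5 bp), and 286 of 507 summits, 56.4%, lay within 100 bp. The fullest 25 bp bin was the one 26 to 50 bp before the start, with 99 summits, followed by 83 summits within 25 bp and 73 between 51 and 75 bp. Between 76 and 100 bp the number was 31. Downstream summits had a median distance of 91 bp, and 51.9% of them lay within 100 bp. The peak interval itself covered the nearest start in 365 members, 72.0%. The median width was 400 bp, a common set width, so this count follows in part from the summit distance.

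**Figure D1:**
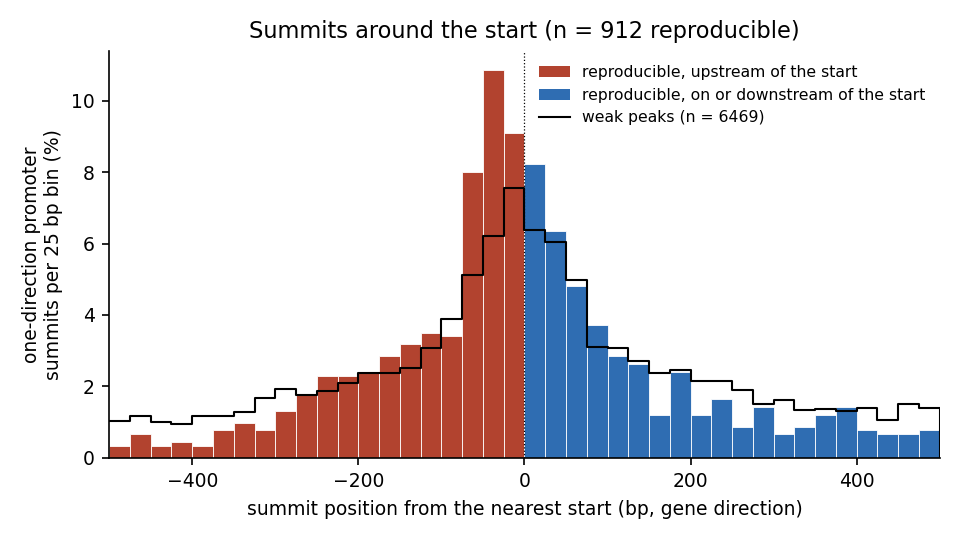
Position of one-direction promoter summits from the nearest start (x axis, bp, negative values upstream in the direction of the gene) as the percentage of summits per 25 bp bin (y axis). Bars are the 912 reproducible peaks, upstream in red and on or downstream of the start in blue, and the line gives 6469 weak peaks; the bar for 26 to 50 bp upstream reaches 10.9%, against 6.21% of weak peaks.

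The nearest members and the farthest show the limits of the rule. Summits 1 bp before the start belonged to Cdep with a signal of 146, RpL37A with 299.5 and Sk1 with 194. At the other end stood RapGAP1 at 484 bp with 126, sdt at 488 bp with 122 and prage at 491 bp with 186. Just outside the window were summits 507 bp from CG5973 and 509 bp from CG42395, with signals of 118 and 143. Signal here is the authors' value per peak in the peak caller's units, and the median over all 1949 reproducible peaks was 163.

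The share of one-direction summits lying upstream varied along the signal range. The side of the start chose the members, so these shares are a description. Weak peaks are the 27650 lines of the authors' pooled relaxed list that share no base with a reproducible peak. The share upstream was 55.6% of 912 reproducible summits (95% Wilson interval 52.4 to 58.8%) and 50.1% of 6469 weak summits (48.9 to 51.4%). Among the 974 strongest lines 51.2% of one-direction summits were upstream, and among ranks 975 to 1949 59.7% were. Of the one-direction summits among the 1949 strongest weak peaks, 58.4% were upstream, a value inside the interval given for the reproducible ones.

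**Figure D2:**
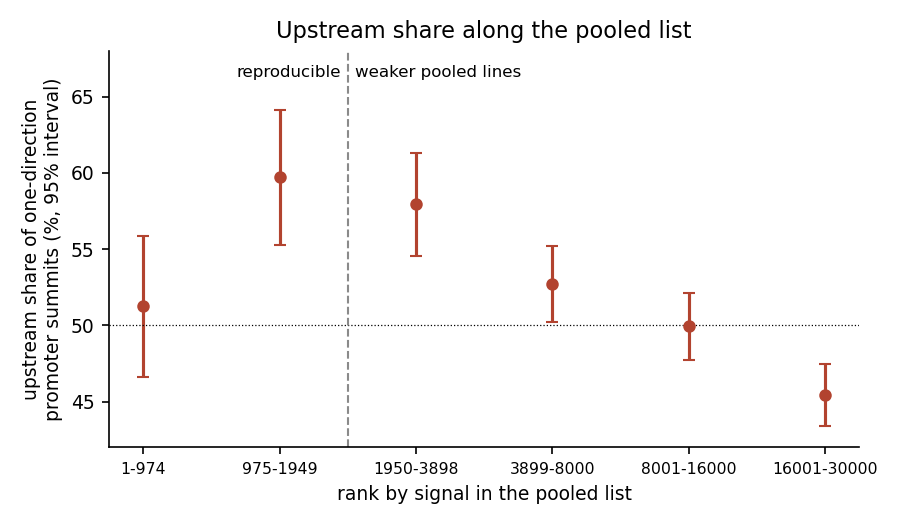
Share of one-direction promoter summits that lie upstream of the nearest start (y axis, %, axis from 42 to 68) by rank of signal in the pooled list (x axis), with 95% Wilson intervals that cover counting error only. The dashed line separates the reproducible list from weaker pooled lines; the share is 59.7% at ranks 975 to 1949, 58.0% at ranks 1950 to 3898 and 45.4% beyond rank 16000, and the dotted line marks 50%.

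The summits of the replicate lists lay close to the pooled ones, which were called on the same 2 libraries, so their side is no independent support for the choice. Members had a partner with 50% reciprocal overlap in both replicate lists in 432 of 507 cases, 85.2%, against 352 of 403 downstream peaks, 87.3% (odds ratio 0.835, Fisher's exact test, p = 0.385). These lists are relaxed, with 30000 lines each, so a partner can be weak and the matched share says little about reproducibility. Among those 432, the summit was upstream of the same start in both replicates in 377, 87.3%. For summits at least 50 bp from the start it was so in 269 of 277, and for nearer ones in 108 of 155, 69.7%. The median shift between the pooled summit and that of its partner was 7 bp in replicate 3 and 15 bp in replicate 4. A member within 50 bp of its start is therefore placed on 1 side with less certainty, and leaving such summits out on both sides left 328 members.

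Most members lay in no annotated gene. The summit was outside every gene body in 282, or 55.6%, and inside a longer transcript of the same gene in 176, or 34.7%. It lay in another protein-coding gene in 37 and in a non-coding gene alone in 12. The summits within their own gene stood before an inner start, with a median signal of 164 and a median distance of 122 bp. For those in no gene the medians were 149 and 58.5 bp. A small or long non-coding RNA gene lay within 500 bp of 43 member summits. These included a snoRNA, a guide RNA of ribosomal RNA modification, in 5 cases and a tRNA gene in 4. The shares were 8.48% of members and 9.59% of all reproducible peaks for such genes together, 0.986% and 1.44% for snoRNAs, and 0.789% and 0.462% for tRNAs.

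The protein-coding neighbour upstream lay on the strand of the member's gene in 301 of 507 cases, with a median gap of 458 bp, and on the opposite strand in 205, with a median of 1546 bp. At downstream peaks the numbers were 198 with 363.5 bp and 205 with 739 bp. Only the closest neighbour was counted. It lay on the same strand within 1000 bp upstream, or covered the start on that strand, at 40.0% of members and 39.5% of downstream peaks (odds ratio 1.02, Fisher's exact test, p = 0.892). This comparison was chosen after the values were seen. Over both strands the shares were 55.0% and 71.5%. The rule bars opposite starts within 500 bp of the summit, which reaches farther upstream for members, so that difference is partly built in and no test is drawn from it. A same-strand gene behind a nearer opposite one was not counted, so the rule enters the same-strand comparison too and nothing is concluded from it. The next reproducible summit lay within 2000 bp for 22.3% of members and 37.0% of downstream peaks, a difference that was not tested. The arms 3R, 2R, 2L, 3L and X carried 139, 105, 95, 86 and 79 members, and chromosome 4 carried 3.

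Upstream peaks were weaker than downstream ones. Member signals ran from 111 to 3685 with a median of 155 and an upper quartile of 210.4, and downstream signals from 111 to 2543 with a median of 173 and an upper quartile of 385. The median signal of the whole list was reached by 228 members, 45.0% (95% Wilson interval 40.7 to 49.3%), and by 216 downstream peaks, 53.6% (48.7 to 58.4%; odds ratio 0.707, two-sided Fisher's exact test, p = 0.0112). Peaks at 1 locus are not independent, so p-values over peaks may be too small. The difference lay mostly in the upper part of the range, where 29 members, 5.72%, and 83 downstream peaks, 20.6%, had signals over 500. Without ribosomal protein and translation factor genes the shares reaching the median were 43.7% and 48.7% (odds ratio 0.818, exact p = 0.158), and the difference no longer passed. Across the 507 members the Spearman rho of signal and distance was 0.0722, against 0.203 across downstream peaks, a description only. In 5 groups of members by falling signal the median distances were 124, 94, 72, 57 and 74.5 bp. The strongest group thus stood farthest out, and the weakest farther out than the group before it.

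**Figure D3:**
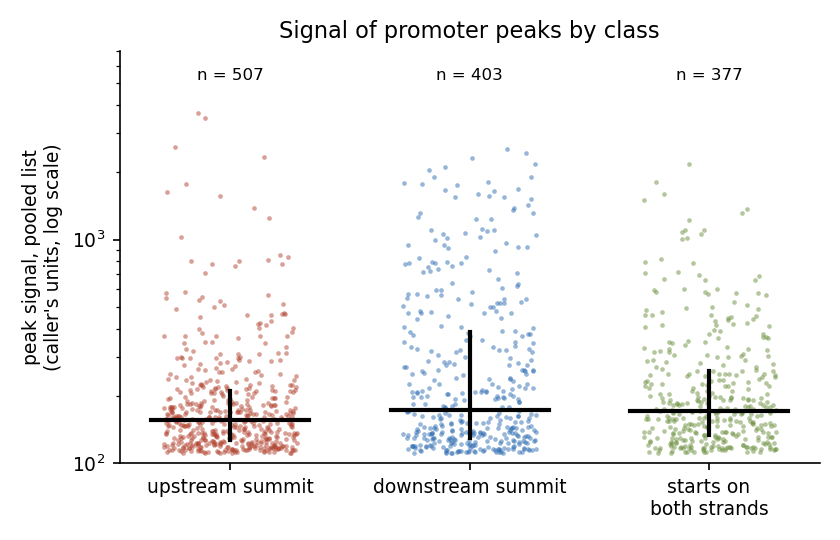
Signal of each promoter peak in the pooled list (y axis, caller's units, log scale) for 507 upstream, 403 downstream and 377 two-strand promoter peaks. Points are single peaks, horizontal bars medians (155, 173 and 171) and vertical bars quartiles; the upper quartile is 210.4 for upstream and 385 for downstream summits.

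The 3 strongest members stood at a translation gene, a topoisomerase gene and a homeobox gene. At eEF1alpha1, which encodes the elongation factor that carries aminoacyl-tRNA to the ribosome, the signal was 2088 in replicate 3 and 1666 in replicate 4, and 3685 pooled. The summit lay 230 bp before an inner start, inside a longer transcript of the gene, at 2R 11892726 to 11893815. Top1, the topoisomerase that relaxes supercoiled DNA, had 2075 and 1456 and 3509 pooled, 50 bp before an inner start at X 15323223 to 15323887. Both ranked among the 3 highest in each replicate list.

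The homeobox gene inv, a partner of engrailed in the posterior compartment of each segment, had 1655 in replicate 3 and 959.8 in replicate 4, 152 bp before an inner start at 2R 11475258 to 11475804. The related homeobox gene en had a member peak of 287, with 203 in replicate 3 and 98.9 in replicate 4. For larp, a La-related RNA-binding protein, the values were 1442 and 941 at 3R 28335272 to 28336169, 41 bp before an inner start. It was 1 of 2 genes with 3 member peaks, the other 2 having pooled signals of 369 and 196. MTPAP, the mitochondrial poly(A) polymerase, had 1016 and 776 at X 1349094 to 1349728, in the gap between genes and 48 bp before the start.

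The next strongest members were of mixed function. The cathepsin gene CtsF, whose product is a lysosomal protease, had 989 in replicate 3 and 634 in replicate 4, 55 bp before the start at 3R 5251566 to 5252010. RpS9, of the small ribosomal subunit, had 949 and 613 at 3L 9511018 to 9511680, 63 bp before an inner start. CG4884 had 806 and 571, 14 bp before an inner start, and kra, a translation regulator, had 755 and 504, 87 bp before an inner start. CG33177 followed with 570.5 and 460.2 at 160 bp, inside a long non-coding RNA gene. Tom70, a receptor of the outer mitochondrial membrane for imported proteins, had 489 and 364, 47 bp before an inner start, and CG14100 had 492 and 344 at 85 bp. All 12 were matched in both replicates. The signal was higher in replicate 3 for each of them, but the lists have separate scales, so the sizes are not compared.

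The promoter of Mondo was the 13th strongest member. Its signal was 815 pooled, 508 in replicate 3 and 305 in replicate 4, and it ranked 104th in the reproducible list, 101st and 127th in the replicate lists. The interval ran from 2L 21309277 to 21309699, with the summit 17 bp before an inner start. The sequence printed above carries AGGTTA with its first base 32 bp before that start. CACGTG did not occur within 50 bp of the summit. The next reproducible summit was 537 bp away, and the gene upstream on the opposite strand was crc, which encodes the fly counterpart of the stress factor ATF4. Mondo was the only one of the 5 listed genes of the Max network, which includes Myc, Max, Mnt and bigmax, to have a member peak. It was also nearest to a downstream summit, with a signal of 156 and AGGTTA within 50 bp. Of the 5 genes, 2 had a reproducible peak of any class within the promoter window.

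Other strong members outside the naming rule, picked after their values were seen, included chaperones and a caspase inhibitor. Hsp60A, the mitochondrial chaperonin, had 474 in replicate 3 and 340.4 in replicate 4, 6 bp before its start. Its summit fell 3 bp past the start in replicate 3 and 10 bp before it in replicate 4. Hsp83, the fly Hsp90, had 284 and 279. Diap1, which restrains caspases, had 492 and 298, and Usp16-45, a deubiquitinase gene, had 468 and 348. At anox the replicate lists stood apart, with 167 in replicate 3 and 603 in replicate 4. The partner in replicate 4 had its summit 14 bp before the start, against 191 bp in the pooled list, and another reproducible summit lay 199 bp away.

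**Figure D4:**
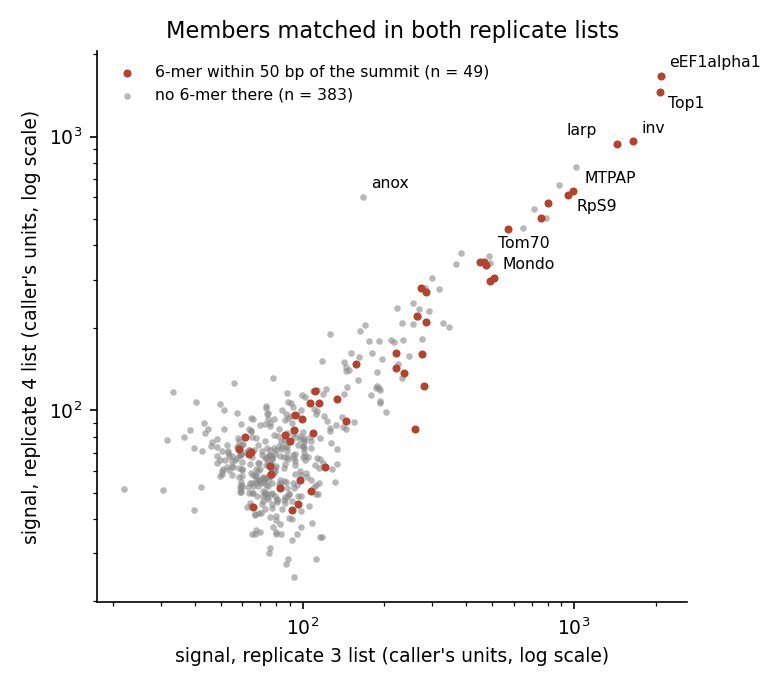
Signal in the replicate 4 list (y axis) against the replicate 3 list (x axis), both in the caller's units on log scales, for the 432 members matched in both. Red points have AGGTTA within 50 bp of the summit (n = 49) and grey points do not (n = 383); eEF1alpha1 and Top1 stand at the upper right, Mondo at 508 and 305, and anox lies off the cloud at 167 and 603.

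Across the 432 matched members, signals of the 2 replicates correlated with a Spearman rho of 0.50 and, on the log2 scale, a Pearson r of 0.821. Across the 352 matched downstream peaks the values were higher, 0.717 and 0.858, a difference that was not tested. These describe peaks, which are no replicates, and the members were drawn from a list ranked on the pool of the same 2 libraries. The matched share dipped in part of the range. In 5 groups by falling signal it was 81.4%, 62.4%, 89.1%, 97.0% and 96.1%. Interval widths changed alongside. In the strongest group 6 of 102 intervals had the common width of 400 bp, in the next group 56 of 101, and in the weakest 100 of 102. The part of width in the match was not tested; with 1 shared base 505 of 507 members had partners in both lists, and 403 of 403 downstream peaks.

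The 6-mer AGGTTA was less frequent at upstream than at downstream summits, and its share at members was near that at two-strand promoters. It lay within 50 bp of 58 of 507 member summits, 11.4% (95% Wilson interval 8.95 to 14.5%), against 92 of 403 downstream summits, 22.8% (19.0 to 27.2%). By Fisher's exact test over 8 motifs the adjusted p was 4.70e-05, with an odds ratio of 0.437. It was at 12.5% of the 377 two-strand promoter peaks and at 19.8% of all 1949 reproducible peaks, differences from the members that were not tested. The upstream and downstream shares were both above background, though the 6-mer was known beforehand to be common at these peaks. It lay in 3.02% of windows at weak upstream summits. At weak downstream summits it lay in 1.56% to 3.68%, depending on the distance from the start. It was in 2.22% of 19253 windows of the same 101 bp centred 75 bp before every protein-coding start. Among peaks at or over the list's median signal the shares were 19.7% and 33.3% (exact test, adjusted p = 0.00986). Below that median they were 4.66% and 10.7% (exact test, adjusted p = 0.0647), which did not pass. Counted within 25 bp of the summit the shares were 6.90% and 11.9% (exact test, adjusted p = 0.0849). All these shares compare summits and not whole promoters. Counted 1 to 100 bp before the start instead, the order was reversed. The 6-mer was then at 5.2% of 500 member starts and 1.05% of 381 downstream ones, which was not tested. Among members it was at 15.9% of summits inside their own gene and 8.51% of those in no gene.

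AGGTTA was most frequent in the strongest members, with no steady fall below them. It was found at 29.4% of the strongest group of 102 members (95% Wilson interval 21.4 to 38.9%), at 12.9%, 4.95% and 8.91% of the next 3 groups of 101, and at 0.980% of the weakest 102 (0.173 to 5.35%). The median signal was 240 for members that held it and 150.3 for the others. Among the 12 strongest it was at 9, MTPAP, Tom70 and CG14100 being those without it, and among the 29 members with a signal over 500 at 16. Of the 58 members, 33 carried the 6-mer on the strand of the gene alone, 24 on the other strand alone and 1 on both. At downstream summits 37 had it on the gene's strand alone, 53 on the other and 2 on both. Its centre lay a median of 20.5 bp from the summit in members, and 28 of 58 were within 20 bp.

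**Figure D5:**
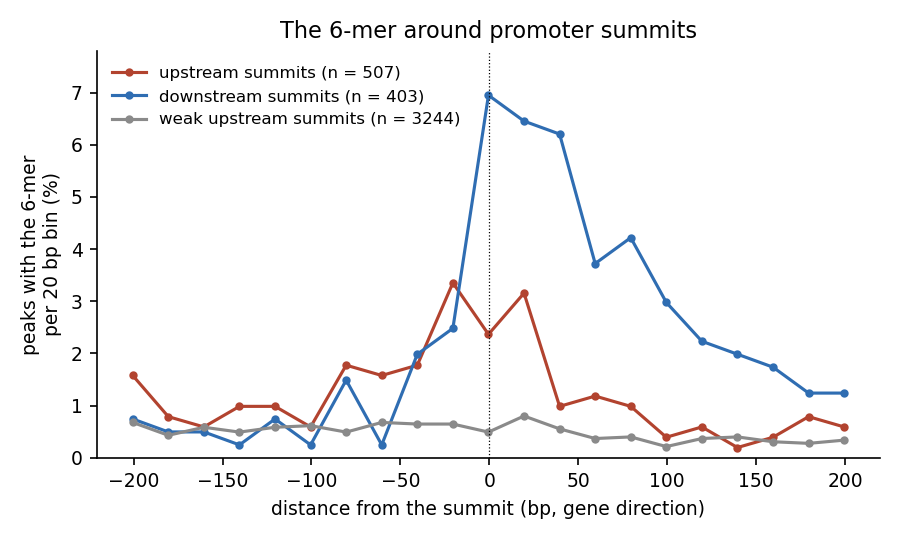
Percentage of peaks with AGGTTA on either strand centred in each 20 bp bin (y axis) by distance from the summit in the direction of the gene (x axis, bp), for 507 upstream, 403 downstream and 3244 weak upstream summits. Upstream summits reach 3.35% in the bin 30 to 11 bp before the summit, downstream summits 6.95% at the summit with 6.20% still 30 to 49 bp past it, and weak summits stay under 1%.

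The E-box of Mondo-Mlx pairs was rare at upstream summits and was not found to differ between the classes. CACGTG lay within 50 bp of 14 member summits, 2.76% (95% Wilson interval 1.65 to 4.58%), and of 12 downstream ones, 2.98% (1.71 to 5.13%), with an odds ratio of 0.925 and, by Fisher's exact test, an adjusted p of 0.965. It was in 1.26% of weak upstream windows and 1.09% of windows before all starts. The 6 strongest of the 14 were kermit with a signal of 372, Sp1, a zinc-finger transcription factor gene needed for leg growth, with 362, RpL11 with 349, the mitochondrial clustering gene clu with 257, CG6966 with 239 and CG8620 with 196. The Sp1 window printed above holds both CACGTG, 501 bp before the start, and AGGTTA, 447 bp before it. Members with CACGTG had a median distance of 168.5 bp from the start, and 10 of the 14 lay in no gene.

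TATCGATA was about as frequent at members as at other starts, and most summits that held it lay close to the start. It lay within 50 bp of 23 member summits, 4.54%, and 11 downstream ones, 2.73% (adjusted p = 0.262 by Fisher's exact test, odds ratio 1.69), against 7.96% of two-strand promoter peaks, 3.67% of weak upstream summits and 3.84% of windows before all starts. Among the 1949 strongest lines of the replicate 4 list, taken in place of the reproducible list, it was at 26 of 500 upstream and 6 of 385 downstream summits. There the difference passed (odds ratio 3.46, exact test, adjusted p = 0.00933). Without summits under 50 bp from the start the odds ratio was 5.13, from 12 of 328 and 2 of 272 summits (exact test, adjusted p = 0.0706). A window at a downstream summit reaches less of the stretch before the start, so these odds ratios compare summits and not whole promoters. Counted 1 to 100 bp before the start instead, the element was at 32 of 500 starts of members, 6.4%. It was at 36 of 381 starts of downstream peaks, 9.45%, and at 5.13% of all starts, differences that were not tested. Of those 23 members, 22 had a summit within 100 bp of the start, the farthest being at 112 bp. The same closeness was seen at other peaks. The element was at 8.40% of weak upstream summits within 25 bp of the start and 0.328% of those beyond 300 bp, and at 0 of the downstream summits beyond 100 bp. Among members it was in 12.3% of the 73 members whose summits were 51 to 75 bp before the start and in none of the 160 beyond 150 bp, where 0 of 160 allows a share of up to 1.88%. None of the 23 lay within its own gene. CtsF, with both TATCGATA and AGGTTA, was the strongest of the 23 at 1625, followed by Alg3, a glycosylation enzyme gene, with 510.4. The rest included Iswi, which encodes a chromatin remodelling ATPase, p53, and the proteasome subunit gene Prosbeta6. Of these, Alg3, Iswi and p53 were picked outside the naming rule, so they do not stand for the others. Iswi had a signal of 276, Prosbeta6 173 and p53 166.

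None of the other 5 motifs passed the threshold between upstream and downstream summits after adjustment. TATAAA, the TATA box core, was within 50 bp of 14.0% and 8.68% of summits (adjusted p = 0.0657 by Fisher's exact test, odds ratio 1.71), with 17.5% in windows before all starts. It lay a median of 151.5 bp before the start in members and 85.5 bp past it at downstream summits. Of the 71 members with it, 23 held it on the strand opposite the gene alone. The counts are thus of the sequence anywhere in the window, not of placed TATA boxes. GAGAGA, bound by GAGA factor, was at 7.30% and 3.97% (odds ratio 1.90, exact test, adjusted p = 0.120). The E-box CAGCTG was at 10.8% and 7.69% (odds ratio 1.46, exact test, adjusted p = 0.223). Counted 1 to 100 bp before the start, TATAAA was at 10.8% of member starts and 12.1% of downstream ones. GAGAGA and CAGCTG kept their order there. GGTCACACT was at 3.16% and 3.23% of summits (exact test, adjusted p = 1), and CAGGTAG, the Zelda site, at 1 and 2 summits (exact test, adjusted p = 0.783). Where GGTCACACT occurred, it was on the gene's strand alone in 10 of 16 members and in 13 of 13 downstream peaks. Mean GC content within 50 bp of the summit was 42.7% ± 9.90 (SD over 507 peaks) for members and 45.5% ± 7.97 (SD over 403) for downstream peaks.

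The 507 members had 486 nearest genes. That is 3.49% of 13945 protein-coding genes, against 2.67% nearest to a downstream summit, and 11.2% had a reproducible peak of any class within the promoter window. Cytosolic ribosomal protein genes were over this level among members, with 16 of 89 genes or 18.0%, yet 32 of 89 or 36.0% were nearest to a downstream summit. Their median signals were 233 and 334. RpS9 led them, followed by RpL23A with 299 in replicate 3 and 305 in replicate 4, and RpS4 with 233 and 208, all with summits within 66 bp of the start. The 6-mer was at 2 of the 16. Genes of translation factors showed the same order, with 6 of 51 at upstream and 17 of 51 at downstream summits and median signals of 199.7 and 888. The members after eEF1alpha1 were eIF6, which keeps ribosomal subunits apart, with 289, and eEF5 with 219.

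Several housekeeping complexes were found mainly at downstream or two-strand promoters. Of 92 genes for respiratory complexes or the ATP synthase, 2 were nearest to an upstream summit, ATPsynB with 218 and SdhB with 133, while 12 were nearest to a downstream one and 17 lay at two-strand promoters. The ATPsynB peak had no partner in either replicate list by 50% reciprocal overlap. Mitochondrial ribosomal proteins had 1 of 73 at an upstream summit, mRpL41 with 381, and 6 at a downstream one. The chaperonin CCT had 0 of 8 and 7 of 8. Aminoacyl-tRNA synthetases had 1 of 33 in both classes, the member being AlaRS with 209. These shares at upstream summits were under the 3.49% of all genes, and they describe lists with no test.

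The proteasome list had Prosbeta6 as 1 of 48 genes. The vacuolar ATPase, a proton pump, had Vha68-2 with 119 and Vha100-2 with 112 as 2 of 33 genes, 6.06%, against 3.49% of all genes, and RNA polymerase and Mediator genes had Polr2F with 211 as 1 of 55. Spliceosomal Sm and U1 genes had none of 10. Both control lists were empty at upstream summits, with 0 of 179 chemoreceptor genes and 0 of 118 cuticle protein genes.

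Genes of sugar use and nutrient sensing, listed after the values were seen, had member signals from 117 at AGBE to 815 at Mondo. The lists were made with the values known, so their shares are no test. Of all protein-coding genes, 3.49% were nearest to an upstream summit and 2.67% to a downstream one. Of 21 nutrient-sensing regulators, 7 had a member peak, 33.3%, and 6 a downstream one, 28.6%. After Mondo these were REPTOR, a transcription factor downstream of the TOR kinase, with 236, Sesn, a TOR inhibitor, with 183, InR, the insulin receptor, with 174, cbt with 168, the AMP kinase subunit SNF4Agamma with 148 and the kinase Sik3 with 136. Of 13 glycolytic genes 2 had one (15.4%), Gapdh2 with 319 and Pgk, phosphoglycerate kinase, with 172 and 166 before different starts. Treh, which splits trehalose, had 131 and AGBE, the glycogen branching enzyme, 117, as 2 of 6 genes of trehalose and glycogen (33.3%). The lowest signal of any member was 111. Heat shock proteins had 3 of 24 (12.5%), Hsp27 following with 223. Mitochondrial import had 3 of 21 (14.3%), with Tom40 at 298 and mge, the fly Tom22, at 157.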

How the data were processed

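Per the labels, chromatin sonicated to 200 to 800 bp was immunoprecipitated from embryos. The deposited file notes give dm6 as the assembly. They name 1 relaxed list each for replicate 3, replicate 4 and the pool of both (30000 lines each), derived from alignments and a control not analysed here, and an IDR-thresholded list derived from these 3. The peak caller is not given in the sources used here. The signal per peak is the authors' deposited value in the caller's units. The deposited −log10 q-value was 3.64 for all 1949 reproducible peaks and ranked nothing. The lists hold no read counts, so depth is unknown and intervals cover counting error only.

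Starts were those of protein-coding transcripts in Ensembl release 115, on the assembly that dm6 names; 0 peaks ran past a chromosome end. Sequence came from the RefSeq copy of it. A motif was searched on both strands within 50 bp of the summit. The 8 motifs named in the text formed 1 family for Benjamini-Hochberg adjustment, with a threshold of 0.05. Tests were two-sided Fisher's exact tests (scipy 1.17.1), and the functions were tested on simulated data. The members, lists, motifs and tests were chosen with earlier results of these data known. Of 18 gene lists, 5 were added after the values were seen. Genes were named as the 12 strongest members, up to 3 per list, the 6 strongest with CACGTG, and those at the limits of the distance rule.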

Additional observations from a re-analysis of the deposited data

How the results depend on the processing

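The results rest on 1 group of 2 libraries, and no paired analysis was possible because there is no second group. Differences between classes are over peaks, not over samples. The lower share of AGGTTA at upstream summits kept its direction in 14 of 14 alternatives, with odds ratios from 0.371 to 0.548. It no longer passed within 25 bp of the summit (0.548) and among peaks below the list's median signal (0.408). All 14 count around summits. Counted 1 to 100 bp before the start, AGGTTA was at 5.2% of member starts and 1.05% of downstream ones, the reverse order, which was not tested. Leaving out a replicate meant taking the 1949 strongest lines of the other replicate's relaxed list, with no IDR threshold. On those different peaks the AGGTTA odds ratio was 0.498 without replicate 3 and 0.546 without replicate 4. The signal difference kept its direction in 11 of 11 and ended without ribosomal protein and translation factor genes (0.818). The odds ratio of lying upstream against weak peaks, 1.24, fell to 1.04 in the 974 strongest lines and turned with the strongest weak peaks as background (0.892). The difference in close neighbours is partly built in by the rule, so its keeping its direction in 13 alternatives is no support for it. The odds ratio was 1.02 when the closest neighbour counted only if on the same strand. The CACGTG odds ratio never passed and turned to 1.02 with a 1000 bp window, 1.04 without summits under 50 bp from the start, 1.20 with 1 peak per gene, 1.11 among the 974 strongest lines and 1.56 without ribosomal protein and translation factor genes. That of TATCGATA, 1.69, passed only without replicate 3 (3.46). It was 2.15 without replicate 4, 5.13 without summits under 50 bp from the start and 2.94 among the 974 strongest lines. Counted 1 to 100 bp before the start, TATCGATA was at 6.4% of member starts and 9.45% of downstream ones, which was not tested. Members numbered 328 without summits under 50 bp from the start, 228 among the 974 strongest lines and 331 when the nearest start had to be the outermost of its gene, and otherwise from 432 to 518. Causes of these changes were not tested. Settings on same-strand neighbours, on the outermost start, on the weaker peaks and on translation genes were added after seeing the data.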
